A study of Homo sapiens with 8 samples.

Results

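Interferon-stimulated genes were followed here across 8 RNA-sequencing libraries of OCI-AML5, a human cell line derived from acute myeloid leukemia. The members were 49 listed genes, taken by exact symbol from a table of 23562 gene rows. Of these, 48 had a row, 45 held enough reads to be tested, and GBP1 had no row and was not analysed here. All 8 cultures received a lentiviral vector (lentiCRISPRv2) that carries Cas9 and a guide RNA. The 4 sgControl libraries are labelled as non-specific control guide RNA, sgControl 1 to 4. The 4 sgCEBPD libraries are labelled as guide RNA against CEBPD, the gene of the transcription factor C/EBP delta, and numbered sgCEBPD 1 to 4. The labels number the libraries within each group and give no guide sequences. Whether a number marks another guide or a repeat culture is not stated, so differences between guides and between cultures cannot be told apart in the error of each group. The library names carry the same numbers in both groups, and whether same-numbered libraries were handled together is not stated. The labels also name no harvest day, clone, pool or repeated transduction, and the p-values therefore reflect variation among these 8 libraries alone, which may be technical.

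Type I interferons bind the receptor chains IFNAR1 and IFNAR2 and activate the kinases JAK1 and TYK2, which phosphorylate STAT2. A complex that holds STAT2 and IRF9 binds a promoter element called the ISRE, and the genes it turns on hinder viral entry, translation and replication. Interferon gamma acts through another element, GAS, and raises IRF1 and the guanylate-binding proteins. Many of these genes have a basal level in blood cells without added interferon. In bulk RNA, a lower level in every cell and fewer cells with the transcript cannot be told apart.

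Library totals lay between 10217751 and 11521209 counts. Levels below are CPM, counts relative to library size, scaled by TMM, a library size correction. CEBPD itself stood at 202 to 216 CPM in sgControl, and at 107, 209.5, 195 and 164 CPM in sgCEBPD 1 to 4. Since edited genes can still be transcribed, these levels are no check of the labels. The expression profile of sgCEBPD 3 was unlike the rest, with correlations of 0.912 to 0.931 to the others, which correlated at 0.972 to 0.989 among themselves. The blood cell gene PTPRC (306 to 366 CPM in sgControl, and 462, 496.5, 943 and 405 CPM in sgCEBPD 1 to 4) and the myeloid factor SPI1 (297 to 319 CPM) were present, and the erythroid marker with a row, ALAS2, stayed at or under 0.363 CPM in all 8 libraries. A list of 15 monocyte and macrophage markers, 14 with a row, summed to 643 to 696 CPM in sgControl, 649 to 879 CPM in sgCEBPD 1, 2 and 4, and 1367 CPM in sgCEBPD 3. Without sgCEBPD 3, PTPRC (adjusted p = 0.0305 in edgeR) and TYROBP of the monocyte list (adjusted p = 0.0269) rose, where 0.705% of all genes passed higher. TYROBP went from 4.55 to 6.72 CPM in sgControl to 12.3, 19.2 and 9.76 CPM in sgCEBPD 1, 2 and 4. It was the only call among 10 tested monocyte markers. Of these 10, 8 had a positive log2 fold change and 2 a negative one (LYZ -0.28 and MS4A7 -0.10). In the same edgeR fit the myeloid markers CD33 (log2 fold change -0.35, adjusted p = 0.0199) and CSF3R (-0.62, 0.01175) fell. So did the plasmacytoid dendritic cell marker TCF4 (-0.93, 0.0149) and the B cell marker CD79A (-1.39, 0.0149), where 1.31% of all genes passed lower. In sgCEBPD 3, CSF3R was instead above every control, at 418 CPM against 288 to 308 CPM. A list of 6 T and NK cell markers, 4 with a row, summed to 1.81 to 5.87 CPM in the other libraries and to 64.0 CPM in sgCEBPD 3, of which CD3D held 52.7 CPM while CD3G had 0.393 CPM. Plasmacytoid dendritic cell markers (6 listed, 3 with a row, mostly TCF4) summed to 45.1 to 58.0 CPM in sgControl and 26.2 to 37.7 CPM in sgCEBPD, and B cell markers (4 listed, 3 with a row) to 5.60 to 6.03 and 2.37 to 5.01 CPM. The part of these shifts in the results was not tested. The test was run over all members with and without sgCEBPD 3.

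Promoters of members are shown first because the ISRE is the element they are known for. RefSeq promoters (GRCh38.p14, 250 bases before to 50 after each listed start) matched 37 members with 49 starts. The ISRE core was searched as GAAANNGAAA on both strands, where matches can overlap each other, and was held by 61.2% of these 49 promoters against 3.57% of all 35116 promoters. The GAS element, searched as TTCNNNGAA, which reads the same on both strands, was held by 24.5% of them against 7.66% of all. Below are stretches of the HERC5 promoter (chr4:88456974-88457074, plus strand), of IFIT3 at its first listed start (chr10:89327821-89327904, plus), of IFIT5 (chr10:89414503-89414573, plus), of ISG15 (chr1:1013364-1013419, plus), of GBP4 (chr1:89198937-89198966, minus) and of DTX3L (chr3:122564312-122564341, plus). They are chosen because HERC5 and GBP4 passed the test below, IFIT3 and DTX3L lay higher in every sgCEBPD library, and IFIT5 and ISG15 parted sgCEBPD 3 from the other sgCEBPD libraries. Capitals mark the matches to the ISRE core, read 5′ to 3′ on the gene's strand.
HERC5: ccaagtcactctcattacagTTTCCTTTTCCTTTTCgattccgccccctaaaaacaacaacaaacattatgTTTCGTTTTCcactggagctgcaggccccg
IFIT3: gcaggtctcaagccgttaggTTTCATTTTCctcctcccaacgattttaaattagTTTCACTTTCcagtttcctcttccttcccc
IFIT5: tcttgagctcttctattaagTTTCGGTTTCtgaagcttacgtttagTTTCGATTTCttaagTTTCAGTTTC
ISG15: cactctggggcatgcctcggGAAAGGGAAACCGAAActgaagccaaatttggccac
GBP4: tccccacaaagtgcatgtccTTTCAATTTC
DTX3L: ggagggacctccagggaagcGAAACTGAAA
The DTX3L match at chr3:122564332-122564341 is also the match in a PARP9 promoter on the opposite strand, since both genes start there and run apart. SP110, which passed the test below, held no ISRE match at its listed starts and a GAS match at 1 of them. Of the 9 members higher in every sgCEBPD library, all had a RefSeq promoter and 4 held the ISRE core (IFIT3, OAS3, MX1 and DTX3L). Counted by gene in the same way, 26 of all 37 matched members held it. A match is a run of letters and not a shown binding site.

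Over all 8 libraries no member passed the test, although most lay higher in sgCEBPD. The log2 fold change of sgCEBPD over sgControl was positive in 38 of 45 tested members, against 50.0% of all 13838 genes tested. The member median was 0.41, and the median over all genes was 0.0003. In edgeR's quasi-likelihood test 0 members passed an adjusted p of 0.05, where 0.0795% of all genes passed (0.00723% higher, 0.0723% lower). The lowest member value was 0.199 (SP110), and 13 members had an unadjusted p under 0.05 (12 higher, 1 lower), or 28.9% against 11.4% of all genes (6.56% higher, 4.83% lower). DESeq2 called 4 members (MX1, SAMD9L and SP110 higher, HERC5 lower), where it called 2.11% of all genes (1.1% higher, 1.01% lower). Limma-voom called 0 members and 13 genes.

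Without sgCEBPD 3, SP110 and GBP4 rose and HERC5 fell. These 3 of 45 members compare with 2.01% of the 14047 genes tested there (0.705% higher, 1.31% lower). Positive log2 fold changes numbered 36 of 45, against 50.3% of all genes, and the member median was 0.32. An unadjusted p under 0.05 was reached by 20 members (17 higher, 3 lower), against 15.5% of all genes (7.3% higher, 8.16% lower). All 3 calls were lost under some of the refits. SP110 lost its call when any 1 of the 7 was left out (adjusted p 0.0543 to 0.133 in edgeR). GBP4 kept it only without sgControl 3, and HERC5 only without sgControl 2, and the adjusted p otherwise reached 0.154 and 0.151. With all 7 libraries, HERC5 also missed the threshold in limma-voom (adjusted p = 0.067), and SP110 in edgeR with the label number as a block (0.0658). Log2 fold changes kept their sign in each of these refits.

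**Figure D1:**
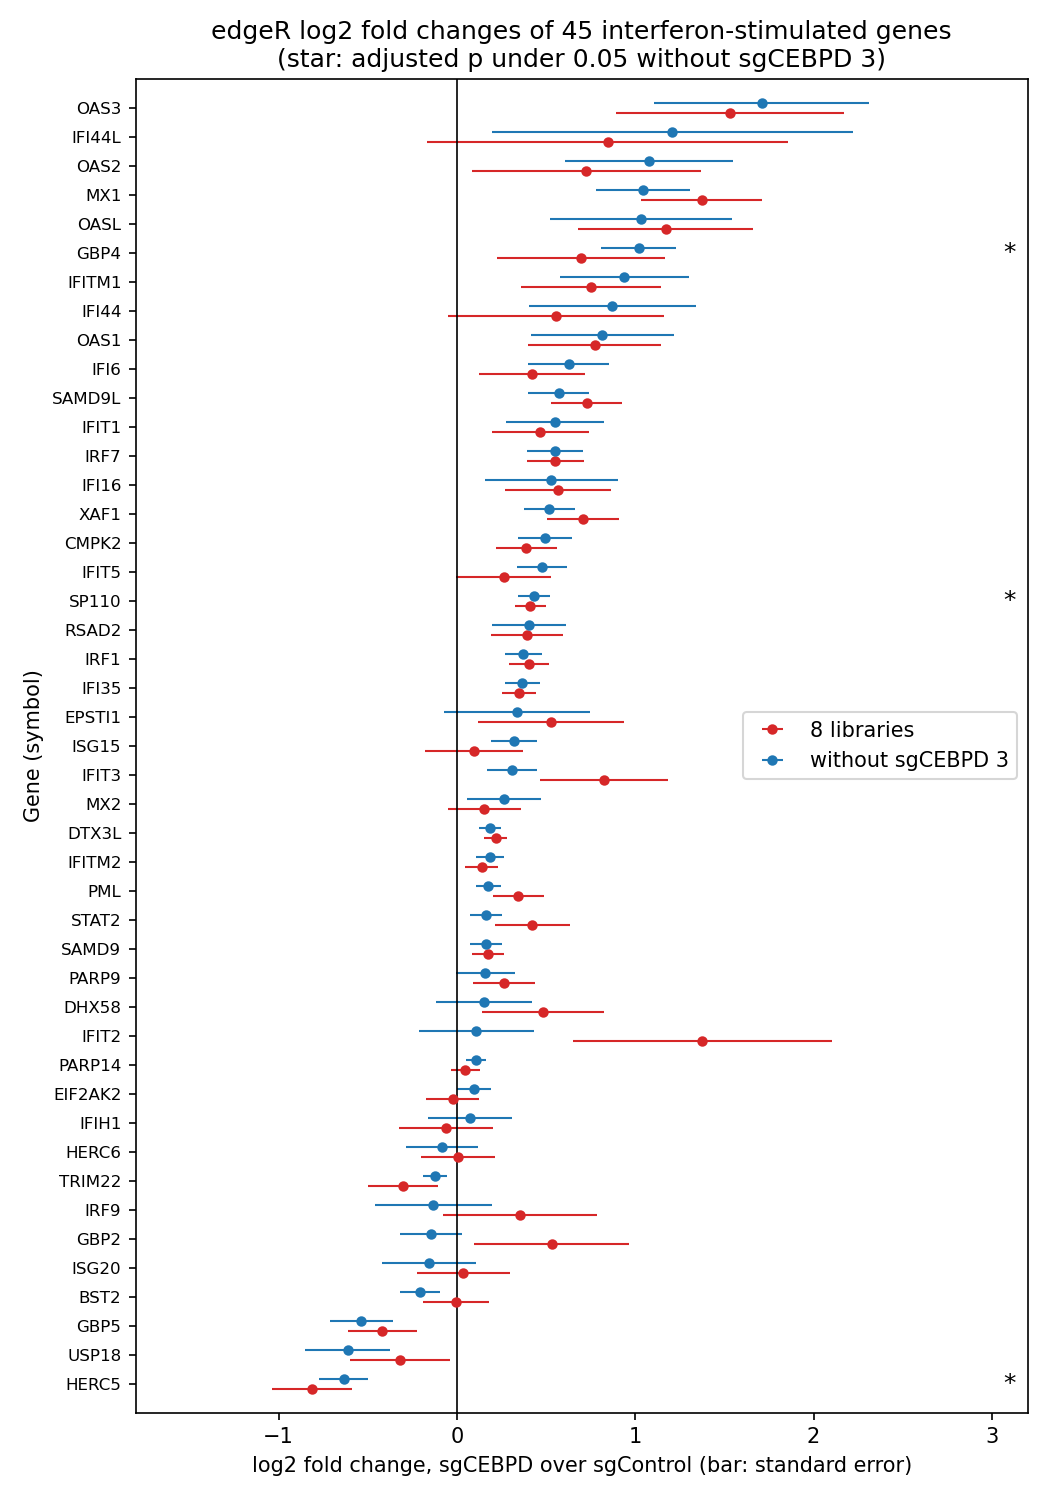
Log2 fold changes of sgCEBPD over sgControl from edgeR (x axis) for the 45 tested genes (y axis), with 8 libraries (red) and without sgCEBPD 3 (blue); bars are standard errors and stars mark an adjusted p under 0.05 without sgCEBPD 3. SP110, GBP4 and HERC5 carry stars, and IFIT2 is the gene whose estimate moves most, from 1.38 to 0.11.

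SP110, an interferon-induced protein of nuclear bodies (chromosome 2, 230167293 to 230225729, minus strand, GRCh38), had the lowest p of all members in both comparisons. It stood at 15.1, 16.1, 17.6 and 15.97 CPM in sgControl 1 to 4, and at 21.2, 23.6, 20.7 and 20.7 CPM in sgCEBPD 1 to 4. The groups did not overlap, and sgCEBPD 3 lay inside the range of its group. The log2 fold change was 0.41 (SE 0.09) with 8 libraries and 0.43 (SE 0.09, adjusted p = 0.0412 in edgeR) without sgCEBPD 3. In the annotation, 20.9% of the exon length of SP110 is overlapped by other genes, and the count's strand setting was not given in the sources used here. One of them, SP140, stood at or under 0.468 CPM in all 8 libraries.

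GBP4, a guanylate-binding GTPase of the interferon gamma response (chromosome 1, 89181148 to 89198932, minus strand), was above all controls in 3 of the 4 CEBPD libraries. Its level was 7.70, 8.82, 11.9 and 6.24 CPM in sgControl 1 to 4, at 16.8, 14.7 and 21.2 CPM in sgCEBPD 1, 2 and 4, and at 3.44 CPM in sgCEBPD 3. Thus sgCEBPD 3 was below every control while the other sgCEBPD libraries were above every control. Without it the log2 fold change was 1.02 (SE 0.21, adjusted p = 0.0440 in edgeR), and with it 0.70 (SE 0.47, adjusted p = 0.573).

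HERC5, which attaches ISG15 to newly made proteins (chromosome 4, 88457117 to 88506163, plus strand), went the other way from most members. It stood at 32.1, 21.4, 26.5 and 27.0 CPM in sgControl 1 to 4, and at 18.8, 14.8, 9.14 and 18.1 CPM in sgCEBPD 1 to 4. All 4 sgCEBPD libraries lay below all controls, with sgCEBPD 3 lowest. It was the only tested member with this pattern, or 2.22% of members, against 4.62% of all genes. The log2 fold change was -0.81 (SE 0.23, adjusted p = 0.284) with 8 libraries and -0.63 (SE 0.14, adjusted p = 0.0483 in edgeR) without sgCEBPD 3.

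The members were then separated by their level in each library. In 9 of 45 members, or 20.0%, all 4 sgCEBPD libraries lay above all 4 controls, against 4.96% of all genes. These were IRF1, IFIT3, OAS3, MX1, IFI35, DTX3L, SAMD9L, SP110 and XAF1. With DESeq2-type size factors (RLE) 11 members had this pattern, with IRF7 and PML added, and with library totals 7, with IRF1 and OAS3 lost. Of the 9, only SP110 passed the test, and only without sgCEBPD 3. In 4 members, IFIT5, OAS2, GBP4 and CMPK2 (8.89% against 1.95% of all genes), only sgCEBPD 1, 2 and 4 lay above all controls. GBP5 and USP18 were lower than all controls in sgCEBPD 1, 2 and 4 alone (4.44% against 2.86%). Among members outside those classes, sgCEBPD 3 was the highest of the 8 libraries in 12 (26.7% against 29.0%) and the lowest in 7 (15.6% against 30.8%). Counted over every class, it was the highest in 18 of 45 members and the lowest in 11, against 34.8% and 34.9% of all genes. The remaining 10 members overlapped (22.2% against 25.8%).

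**Figure D2:**
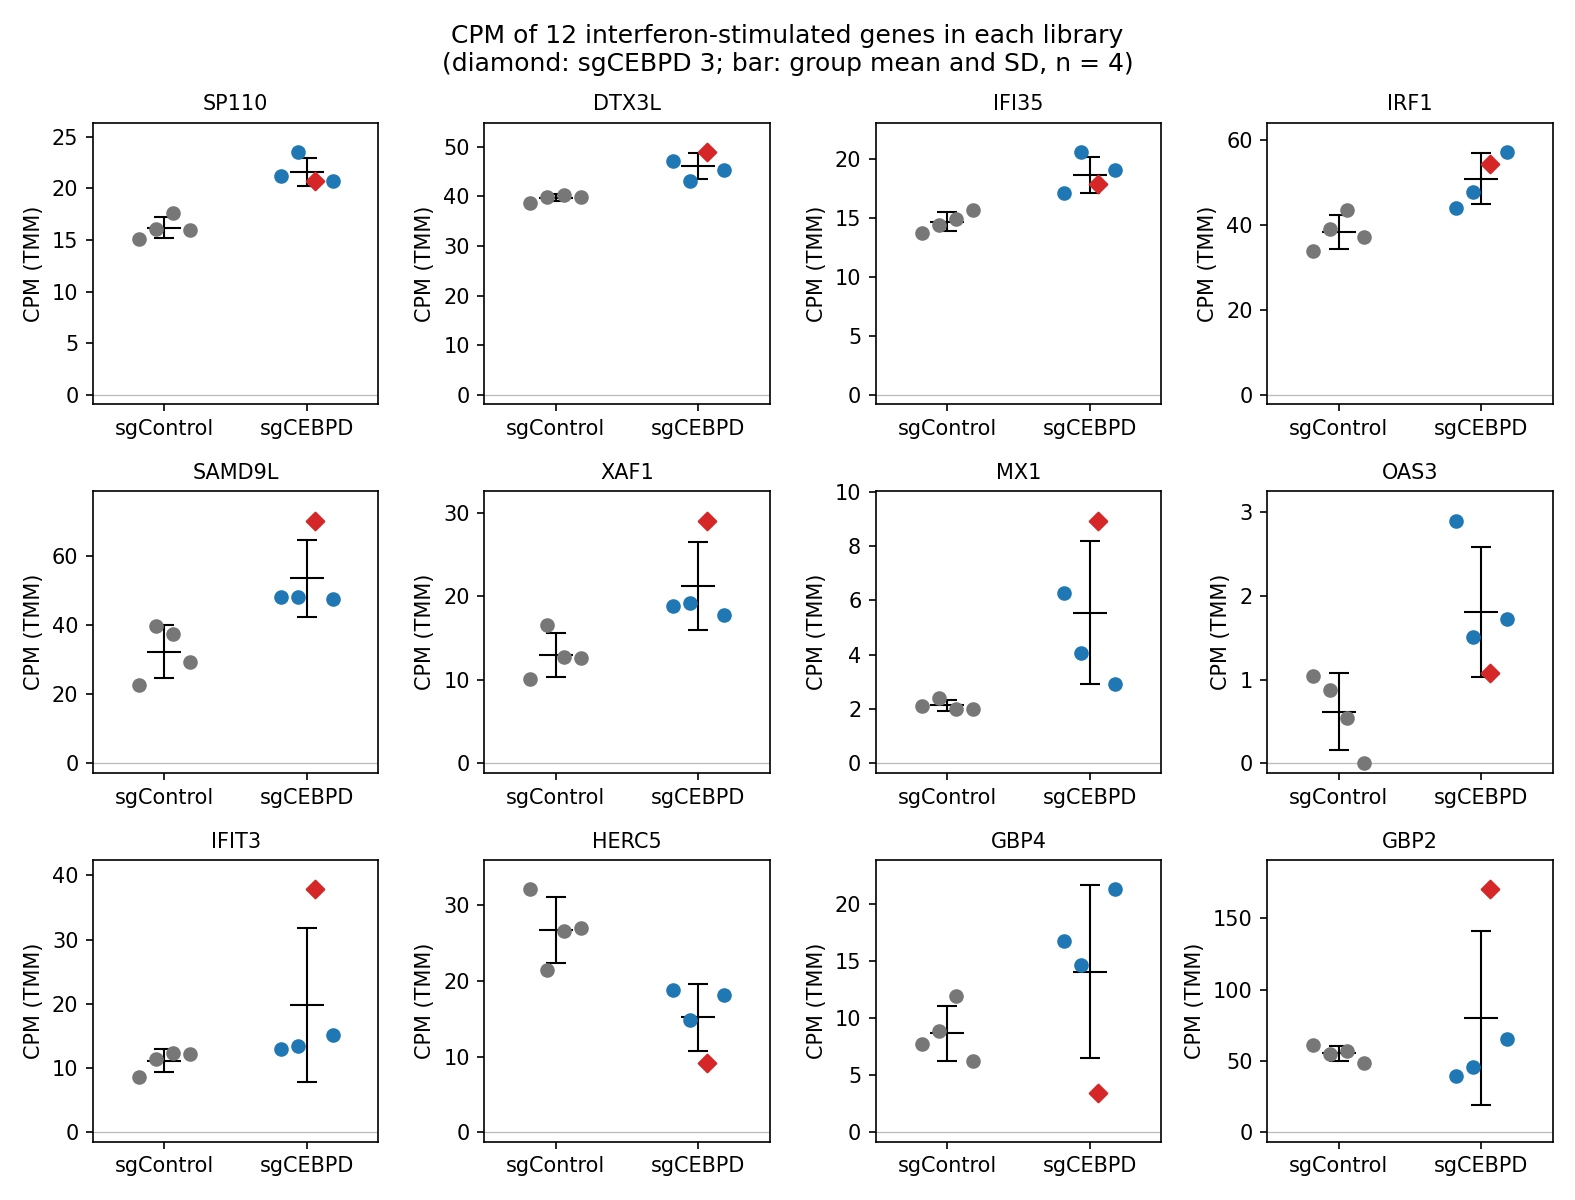
CPM (TMM-scaled, linear axis from 0) of 12 genes in each of the 8 libraries, sgControl in grey and sgCEBPD in blue, with sgCEBPD 3 as a red diamond; horizontal bars are group means and error bars SD (n = 4). SP110, DTX3L and IFI35 separate the groups with sgCEBPD 3 near the rest of its group, while GBP2 and IFIT3 are high and GBP4 is low in sgCEBPD 3.

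Among the transcription factors, IRF1, which mediates much of the gamma response, was higher in every sgCEBPD library with no call. It stood at 33.8, 39.2, 43.5 and 37.2 CPM in sgControl 1 to 4, and at 44.1, 47.8, 54.4 and 57.3 CPM in sgCEBPD 1 to 4 (edgeR log2 fold change 0.41 with SE 0.11 and adjusted p = 0.281 over 8 libraries, 0.37 and 0.119 without sgCEBPD 3). The nearest values of the groups, 43.5 and 44.1 CPM, nearly touched, and with library totals they overlapped. Other annotated genes overlap 28.0% of its exon length. IRF7, which drives interferon genes, stood at 10.2 to 14.2 CPM in sgControl and at 14.1, 20.2, 18.6 and 21.0 CPM in sgCEBPD 1 to 4, so that sgCEBPD 1 lay within the control range. STAT2, the transactivating part of the ISRE complex, stood at 44.4 to 54.9 CPM in sgControl, at 49.1, 59.0 and 56.6 CPM in sgCEBPD 1, 2 and 4, and at 98.5 CPM in sgCEBPD 3. IRF9, its DNA-binding partner, stood at 1.18 to 2.71 CPM in sgControl, 1.42 to 1.73 CPM in sgCEBPD 1, 2 and 4, and 4.13 CPM in sgCEBPD 3. It had 13 to 42 counts per library, and an annotated gene on the same strand overlaps 48.4% of its exon length. The higher group means of STAT2 and IRF9 thus lay mostly in sgCEBPD 3, and the mean of IRF9 without it was below the control mean (1.55 against 1.71 CPM).

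The IFIT proteins bind viral RNA and block its translation, and their genes lie side by side on chromosome 10. IFIT2 stood at 2.01, 2.04, 2.09 and 3.49 CPM in sgControl 1 to 4, at 2.34, 1.61 and 3.80 CPM in sgCEBPD 1, 2 and 4, and at 17.4 CPM in sgCEBPD 3. Its excess lay in sgCEBPD 3, at 6.73 times the mean of the other sgCEBPD libraries. IFIT3 stood at 8.66, 11.4, 12.4 and 12.2 CPM in sgControl 1 to 4, at 12.9, 13.4 and 15.1 CPM in sgCEBPD 1, 2 and 4, and at 37.8 CPM in sgCEBPD 3. All sgCEBPD libraries were thus above the controls, by a narrow margin in 3 of them (log2 fold change 0.83 with 8 libraries and 0.31 without sgCEBPD 3). IFIT5 was instead lowest in sgCEBPD 3, at 5.70 CPM, and stood at 7.99 to 10.95 CPM in sgControl and 11.9, 14.5 and 12.4 CPM in sgCEBPD 1, 2 and 4. IFIT1 overlapped between the groups, at 2.20 to 3.97 CPM in sgControl and 3.03 to 5.87 CPM in sgCEBPD. Neighbouring genes of this family therefore stood in opposite places in 1 library.

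The membrane proteins that hold viruses at the cell surface or in endosomes had no member past the test. BST2 (tetherin), with the highest mean level of all members per kilobase of annotated exon (66.5 CPM per kilobase), stood at 63.4 to 78.8 CPM in sgControl and at 57.9, 76.2, 104 and 59.5 CPM in sgCEBPD 1 to 4. Its groups overlapped on both sides, and the log2 fold change was -0.01, or -0.21 without sgCEBPD 3, with no call. IFITM2 (40.0 CPM per kilobase) had a mean of 58.8 ± 5.37 CPM in sgControl and 64.7 ± 5.29 CPM in sgCEBPD (SD, n = 4 each). IFITM1 stood at 0.700 to 2.04 CPM and 1.08 to 2.37 CPM. IFITM3 was not tested, with 0 to 6 counts per library. IFITM1 and IFITM2 share exon sequence in the annotation, so reads could not be assigned to either with certainty.

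The sensors of double-stranded RNA and the OAS enzymes, which make the activator of RNase L, split. OAS2 stood at 4.11, 9.01, 9.54 and 2.66 CPM in sgControl 1 to 4, at 18.7, 10.97 and 10.4 CPM in sgCEBPD 1, 2 and 4, and at 1.77 CPM in sgCEBPD 3. The last was the lowest of all 8 libraries, and the other sgCEBPD libraries were the highest. OAS3 had few reads, with 12, 9, 6 and 0 counts in sgControl 1 to 4 and 31, 16, 11 and 20 counts in sgCEBPD 1 to 4. Its groups did not overlap in CPM, with 1.05 CPM in sgControl 1 beside 1.08 CPM in sgCEBPD 3 (edgeR log2 fold change 1.53 with SE 0.64 and adjusted p = 0.430 over 8 libraries, 1.71 and 0.219 without sgCEBPD 3). OAS1 and OASL had means of 0.875 and 0.539 CPM in sgControl and 1.49 and 1.21 CPM in sgCEBPD, with overlap. The RNA sensor IFIH1 (MDA5) stood at 6.15 to 8.72 CPM in sgControl and 4.91 to 10.7 CPM in sgCEBPD. EIF2AK2 (PKR), a kinase that halts translation, stood at 51.1 to 60.4 CPM in sgControl and was lowest, at 40.3 CPM, in sgCEBPD 3. DHX58 (LGP2), a regulator of these sensors, was highest there, at 8.06 CPM against 2.62 to 5.18 CPM in the other 7.

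Of the dynamin-like GTPases, MX1, which traps viral nucleoproteins, was higher in every sgCEBPD library. It stood at 2.10, 2.42, 2.00 and 2.02 CPM in sgControl 1 to 4, and at 6.27, 4.07, 8.94 and 2.94 CPM in sgCEBPD 1 to 4. The controls lay close together and the sgCEBPD libraries spread from 2.94 to 8.94 CPM. The log2 fold change was 1.37 (SE 0.34, adjusted p = 0.253 in edgeR) with 8 libraries and 1.05 (SE 0.26, adjusted p = 0.0779) without sgCEBPD 3. MX2 overlapped, at 32.2 to 60.8 CPM in sgControl and 42.2 to 63.1 CPM in sgCEBPD. GBP2 stood at 48.5 to 61.0 CPM in sgControl, at 39.2, 45.6 and 65.0 CPM in sgCEBPD 1, 2 and 4, and at 170.3 CPM in sgCEBPD 3. GBP2 and GBP4, both on chromosome 1, were thus at the highest and at the lowest of the 8 libraries in sgCEBPD 3. GBP5 stood at 18.3 to 23.9 CPM in sgControl and at 18.1, 10.3, 19.6 and 15.0 CPM in sgCEBPD 1 to 4.

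ISG15, the ubiquitin-like modifier itself, stood at 15.2, 17.6, 19.3 and 14.0 CPM in sgControl 1 to 4, at 20.1, 18.3 and 23.6 CPM in sgCEBPD 1, 2 and 4, and at 8.65 CPM in sgCEBPD 3. Only sgCEBPD 3 lay below the controls. USP18, the protease that removes ISG15 and also restrains the type I receptor, stood at 2.01 to 3.03 CPM in sgControl, 1.56 to 1.99 CPM in sgCEBPD 1, 2 and 4, and 3.34 CPM in sgCEBPD 3. HERC6, a relative of HERC5 beside it on chromosome 4, had means of 7.12 and 7.14 CPM in sgControl and sgCEBPD. Of this system, 0 of 4 members passed with 8 libraries and 1 of 4 (HERC5) without sgCEBPD 3, where 2.01% of all genes passed, and the median log2 fold change was -0.16 with 8 libraries and -0.35 without sgCEBPD 3.

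Among the IFI genes, IFI35, a partner of NMI, separated the groups by a small step. It stood at 13.7, 14.4, 14.9 and 15.7 CPM in sgControl 1 to 4 and at 17.1, 20.6, 17.9 and 19.1 CPM in sgCEBPD 1 to 4 (edgeR log2 fold change 0.35 with SE 0.10; adjusted p = 0.284 over 8 libraries, 0.0981 when sgCEBPD 3 was dropped). IFI16, a DNA sensor, stood at 17.1, 42.9, 27.1 and 17.4 CPM in sgControl 1 to 4 and at 36.7, 45.8, 41.6 and 30.5 CPM in sgCEBPD 1 to 4. Here sgControl 2 alone reached into the sgCEBPD range. IFI44L stood at 0, 3.30, 0.999 and 0.275 CPM in sgControl 1 to 4 and at 2.99, 1.14, 0.295 and 3.63 CPM in sgCEBPD 1 to 4. IFI44 stood at 0.437 to 1.74 CPM in sgControl, at 1.51 to 2.43 CPM in sgCEBPD 1, 2 and 4, and at 0.393 CPM in sgCEBPD 3. IFI6, a mitochondrial protein that delays cell death, was also lowest in sgCEBPD 3, at 2.26 CPM. IFI27 was not tested, with 0 to 2 counts per library.

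DTX3L, a ubiquitin ligase that pairs with PARP9, had the smallest step of the 9. It stood at 38.7, 39.9, 40.3 and 39.9 CPM in sgControl 1 to 4 and at 47.2, 43.0, 49.03 and 45.4 CPM in sgCEBPD 1 to 4 (edgeR log2 fold change 0.22 with SE 0.07 and adjusted p = 0.322 over 8 libraries, 0.19 and 0.175 without sgCEBPD 3). The 4 controls spanned less than 2 CPM. PARP9, which shares that start region, overlapped between the groups, with means of 7.55 ± 0.424 and 9.08 ± 1.98 CPM (SD, n = 4 each). PARP14, an ADP-ribosyltransferase, stood at 115 to 131 CPM in sgControl and 112 to 139 CPM in sgCEBPD.

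SAMD9L, a growth-restraining antiviral protein mutated in inherited myeloid disease, stood at 22.8, 39.6, 37.4 and 29.5 CPM in sgControl 1 to 4 and at 48.2, 48.1, 70.2 and 47.6 CPM in sgCEBPD 1 to 4. The sgCEBPD libraries 1, 2 and 4 were within 1 CPM of each other and sgCEBPD 3 was higher (log2 fold change 0.73, SE 0.20, adjusted p = 0.284 with 8 libraries, and 0.57, SE 0.17, adjusted p = 0.173 without sgCEBPD 3, in edgeR). Its neighbour and paralog SAMD9 had means of 37.1 ± 3.67 and 41.9 ± 2.32 CPM (SD, n = 4 each), with overlap. CMPK2, a mitochondrial nucleotide kinase, stood at 28.5 to 44.6 CPM in sgControl, at 50.8, 61.2 and 53.0 CPM in sgCEBPD 1, 2 and 4, and at 39.6 CPM in sgCEBPD 3. RSAD2 (viperin), which lies head to head with CMPK2, stood at 4.41 to 8.57 CPM in sgControl and 8.14 to 10.01 CPM in sgCEBPD. The exonuclease ISG20 had means of 1.80 and 1.86 CPM.

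XAF1, a promoter of apoptosis, stood at 10.1, 16.6, 12.7 and 12.6 CPM in sgControl 1 to 4 and at 18.8, 19.2, 29.1 and 17.8 CPM in sgCEBPD 1 to 4. All sgCEBPD libraries were above the controls (log2 fold change 0.71, SE 0.20, adjusted p = 0.292 with 8 libraries, and 0.52, SE 0.15, adjusted p = 0.1105 without sgCEBPD 3, in edgeR). The noncoding gene PRAL overlaps 38.3% of its exon length on the other strand and stood at or under 0.590 CPM in all libraries. TRIM22, an antiviral ubiquitin ligase, stood at 171 to 187 CPM in sgControl, at 165, 178 and 146 CPM in sgCEBPD 1, 2 and 4, and at 85.8 CPM in sgCEBPD 3. PML, the scaffold of nuclear bodies, stood at 42.4 to 47.6 CPM in sgControl and at 47.5, 52.9, 74.1 and 48.4 CPM in sgCEBPD 1 to 4. EPSTI1 overlapped, at 2.02 to 5.33 CPM and 2.37 to 6.98 CPM. LGALS3BP, a secreted glycoprotein, was not tested and had 89 counts in sgCEBPD 4 against 0 to 12 in each other library.

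**Figure D3:**
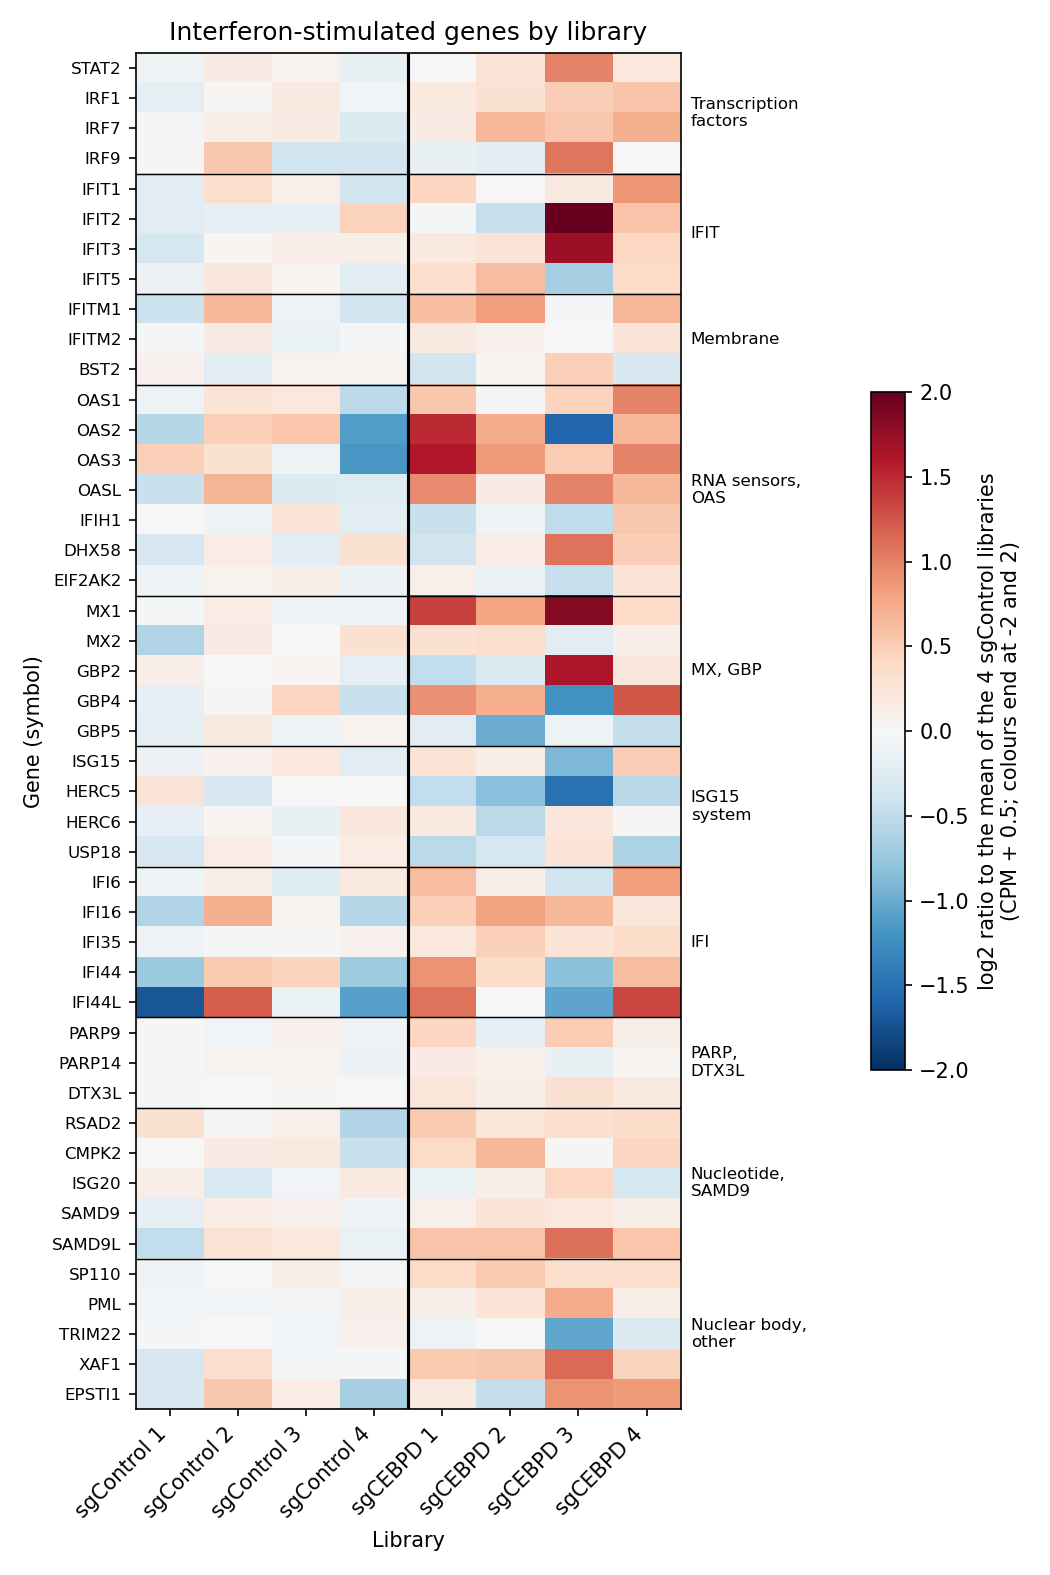
Log2 ratio of each library (columns) to the mean of the 4 sgControl libraries, on CPM plus 0.5, for the 45 tested genes (rows, grouped by role); red is higher and blue lower, and colours end at -2 and 2. The sgCEBPD 3 column holds both the deepest reds (IFIT2, MX1, IFIT3, GBP2) and deep blues (OAS2, HERC5, GBP4), and sgControl 1 and 4 are bluer than sgControl 2 in rows such as IFI16, IFI44 and OAS2.

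A difference was counted as driven by 1 library when the log2 ratio of the group means lost over 50% of its size, or changed sign, without that library. By this rule 26 of 45 members (57.8%) depended on no single sgCEBPD library, against 34.4% of all genes. Of these 26, 23 were higher and 3 lower in sgCEBPD. Members that depended on sgCEBPD 3 numbered 11 (24.4%, against 46.5% of all genes), namely STAT2, IRF9, IFIT2, IFIT3, IFIH1, DHX58, EIF2AK2, GBP2, HERC6, ISG20 and TRIM22. Another 7 depended on sgCEBPD 1, 3 on sgCEBPD 2 and 5 on sgCEBPD 4, with some counted under more than 1 library. For IFIH1, EIF2AK2, HERC6, ISG20, BST2 and PARP14 the group means were within 5% of each other, so the rule says little of them.

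In sgCEBPD 3, members went both ways. It lay above the mean of sgCEBPD 1, 2 and 4 in 23 of 45 members, against 49.5% of all genes. It was over 2-fold above in 6 members and over 2-fold below in 7, against 7.87% and 7.68% of all genes. The largest excesses were IFIT2 (6.73 times), GBP2 (3.41 times), IFIT3 (2.74 times) and IRF9 (2.67 times). The largest shortfalls were IFI44L (0.114 times), OAS2 (0.133 times), GBP4 (0.196 times) and IFI44 (0.202 times). Of these, IFI44L and IFI44 rest on 3 and 4 counts in sgCEBPD 3, and IFI44L lay there within the control range. All these excesses and shortfalls are values of 1 library, and no test was made.

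**Figure D4:**
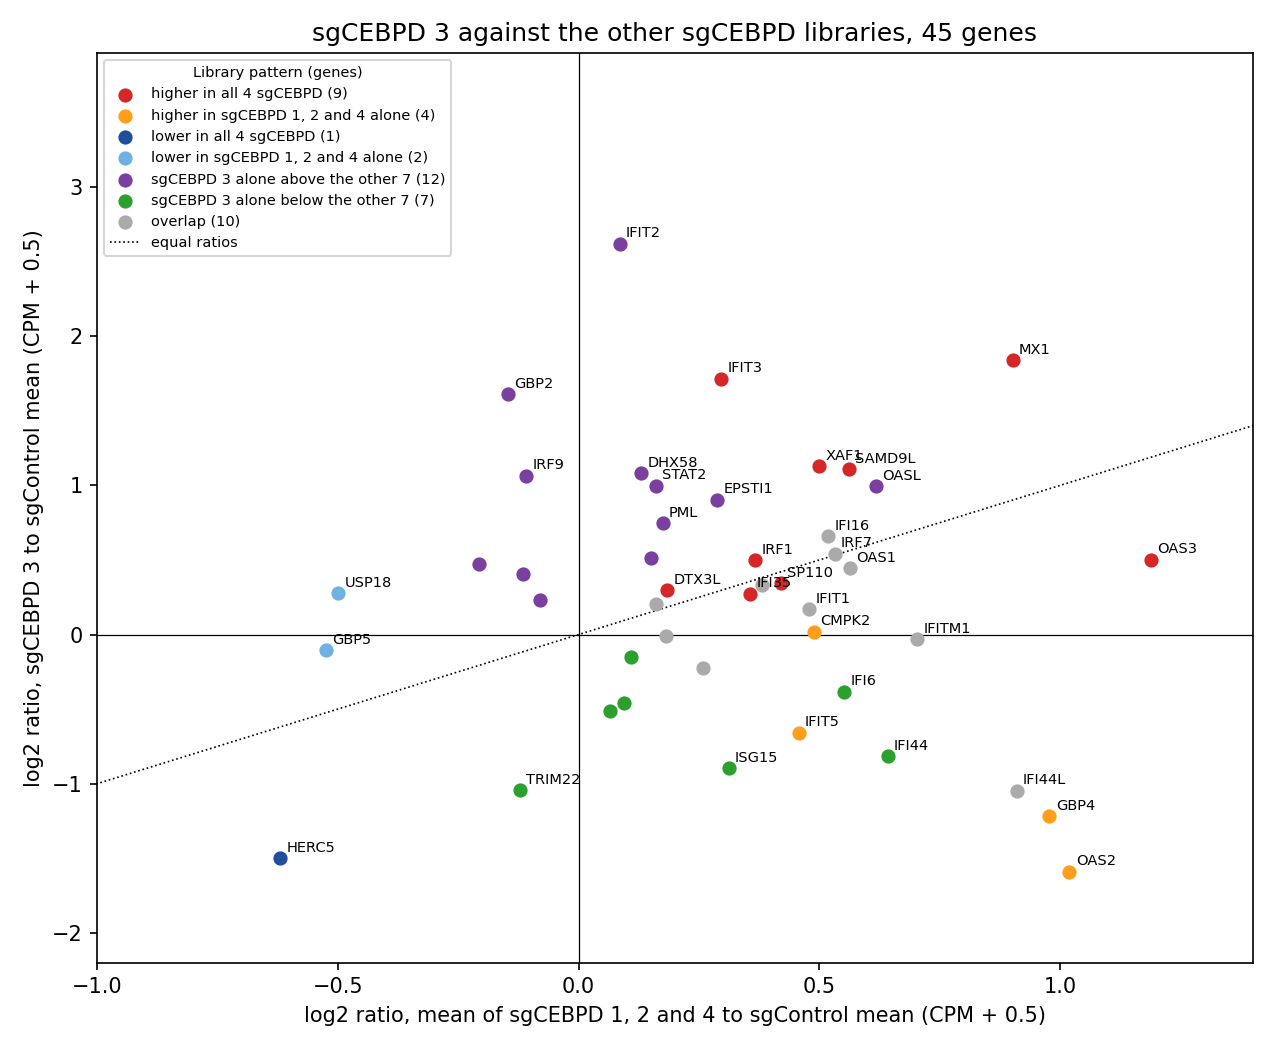
Log2 ratio to the sgControl mean (CPM plus 0.5) in sgCEBPD 3 (y axis) against that of the mean of sgCEBPD 1, 2 and 4 (x axis) for the 45 tested genes, coloured by library pattern, with counts in the legend; the dotted line marks equal ratios. IFIT2, GBP2 and IFIT3 lie far above the line, OAS2, GBP4 and IFI44L far below it, and SP110, IFI35 and DTX3L close to it.

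By library, the median log2 ratio of the 45 members to the control mean was 0.25, 0.24, 0.30 and 0.41 in sgCEBPD 1 to 4. The member level was above the control mean in 34, 32, 29 and 39 of 45 members. The controls themselves spread in the same measure, with 10, 34, 26 and 15 members above the control mean in sgControl 1 to 4, where each control is part of that mean. The lowest of all 8 values was in sgControl 1 for 13 members and in sgControl 4 for 8, and in sgControl 2 for 1. Summed over the 45 members, sgControl 1 to 4 held 1050, 1178, 1153 and 1077 CPM and sgCEBPD 1 to 4 held 1216, 1251, 1351 and 1247 CPM. Without sgControl 1 and sgCEBPD 3 the member median was 0.23.

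Upstream of the members, 1 of 22 interferon genes listed, IFNB1, had a row, and it stayed at or under 0.197 CPM. The other interferon genes were not analysed here. Of 6 receptor genes, 5 had a row and 0 passed in either edgeR fit. Of all genes, 0.0795% passed with 8 libraries and 2.01% without sgCEBPD 3, so 0 calls in lists this short say little. IFNAR1 had means of 73.4 ± 3.047 and 78.0 ± 10.7 CPM (SD, n = 4 each), and IFNGR1, a chain of the interferon gamma receptor, stood at 101 to 112 CPM in sgControl, 115 to 142 CPM in sgCEBPD 1, 2 and 4, and 290 CPM in sgCEBPD 3. None of the kinases JAK1, JAK2 and TYK2 passed in edgeR, and TYK2 stood at 214 to 228 CPM in sgControl and 213 to 285 CPM in sgCEBPD. Among 17 symbols of nucleic acid sensors and adaptors, 8 were tested and 0 passed in either fit, against the same shares of all genes. The 2 with the highest levels, STING1 and MAVS, had log2 fold changes of 0.04 each with 8 libraries. IRF8, a factor of monocyte and dendritic lineages, stood at 280 to 344 CPM in sgControl and 356 to 450 CPM in sgCEBPD (log2 fold change 0.29, adjusted p = 0.352 in edgeR, and 0.33 and 0.116 without sgCEBPD 3), and IRF5 at 97.8 to 121 and 111 to 144 CPM. Of 9 negative regulators, all tested, 0 passed in either fit, against the same shares of all genes. The highest levels were in ADAR and TRIM28 (log2 fold changes -0.01 and -0.07 with 8 libraries).

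Other interferon-induced genes outside the member list (69 symbols, 50 tested with 8 libraries) had a median log2 fold change of 0.19, and 37 were positive, against 50.0% of all genes. None passed with 8 libraries in edgeR, with 14 at an unadjusted p under 0.05, against 11.4% of all genes. Without sgCEBPD 3, the median over 51 tested was 0.10, and NMI and SLFN5 rose, where 2.01% of all genes passed. With 8 libraries neither passed (adjusted p = 0.265 for each in edgeR). NMI, the partner of IFI35, stood at 56.2 to 69.0 CPM in sgControl and at 80.6, 79.1, 113 and 76.8 CPM in sgCEBPD 1 to 4 (edgeR log2 fold change 0.37 with SE 0.07 and adjusted p = 0.0320 without sgCEBPD 3). SLFN5, a Schlafen family gene, stood at 2.27 to 2.82 CPM in sgControl and at 4.68, 5.68, 13.7 and 4.66 CPM in sgCEBPD 1 to 4 (edgeR log2 fold change 0.96 with SE 0.18 and adjusted p = 0.0300 without sgCEBPD 3). Both genes were higher in all 4 sgCEBPD libraries than in all controls, a pattern of 4.96% of all genes, and sgCEBPD 3 was highest in both. In this list TRIM5, TRIM25, PARP10, WARS1, CIITA, GBP3 and SHISA5 had the same pattern without a call. ZC3HAV1 was lower in all 4 sgCEBPD libraries. The 2 with the highest level in this list, TRIM25 and RNF213, did not pass.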

How the data were processed

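RNA of 8 OCI-AML5 libraries was sequenced by the authors, and the deposited values are raw counts per gene symbol, with 116 rows of repeated symbols. FastQC, HISAT2, DESeq2 and the build hg38 are named per the submitters' processing notes. For the counting tool, annotation and strand setting, nothing is given in the sources used here, and overlapping genes and near-identical copies are uncertain. Groups follow the labels. Counts were fitted in R 4.3.3 with edgeR 4.0.16 (filterByExpr, TMM, quasi-likelihood test, Benjamini-Hochberg adjustment over all genes tested, threshold 0.05), with all 8 libraries and with the 7 without sgCEBPD 3. Alternatives used DESeq2 1.42.0, limma 3.58.1, other scaling and filters, and each library left out. Depth was 10217751 to 11521209 counts per library, and genes under about 1 CPM rest on few reads. The named genes are the members, CEBPD, genes that overlap members, and listed non-members that passed in edgeR or were the most abundant of a list. Some further markers and pathway genes are named as description only. The members and lists were chosen with earlier results of these data known. On simulated counts with 200 changed genes, 61% of 2-fold and 88% of 4-fold changes were recovered with 8 libraries (13614 genes), and 73% and 90% with 7 (13860 genes). Unchanged genes made up 1.97% of the simulated calls with 8 libraries and 9.94% with 7. In the simulation no library stood apart as sgCEBPD 3 does, and most members changed by less than 2-fold. These rates therefore do not give the share of member changes that the test would find. Correlations of same-numbered deviations from the group means were -0.081 to 0.056. The sgCEBPD mean includes the outlying sgCEBPD 3, so this check cannot exclude that same-numbered libraries were paired. Promoters came from RefSeq (GRCh38.p14), and exon overlaps from GENCODE 29. Some items are not reported here.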

Additional observations from a re-analysis of the deposited data

Results flagged for a closer look

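In 8 of 90 groups of 4 libraries, 1 library stood far from the other 3 by Dixon's criterion, where chance gives about 1 in 20 groups, or 4.5. Of these, 5 concerned sgCEBPD 3. IRF9 stood at 4.13 CPM there (others 1.42 to 1.73), IFIT2 at 17.4 CPM (1.61 to 3.80), IFIT3 at 37.8 CPM (12.9 to 15.1), SAMD9L at 70.2 CPM (47.6 to 48.2) and XAF1 at 29.1 CPM (17.8 to 19.2). The other 3 concerned controls. IFIT2 stood at 3.49 CPM in sgControl 4 (others 2.01 to 2.09), BST2 at 63.4 CPM in sgControl 2 (77.7 to 78.8) and OASL at 1.16 CPM in sgControl 2 (0.262 to 0.367).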

How the results depend on the processing

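With 8 libraries, genes called numbered 11, and 292 with DESeq2, 20 without a filter and 0 to 283 when 1 library was left out (0 without sgCEBPD 2, where 1345 had an unadjusted p under 0.05, and 283 without sgCEBPD 3). Members called numbered 0, and 4 with DESeq2 and 0 to 3 with 1 library left out. Without sgCEBPD 3, genes called numbered 283, and 596 with DESeq2 and 66 (without sgControl 1) to 312 with 1 more library left out. Members called there numbered 3, and 5 with DESeq2, 2 with limma-voom, 4 without a filter and 0 to 3 with 1 library left out. The member median log2 fold change was 0.41 with 8 libraries and 0.32 without sgCEBPD 3, and 0.30 and 0.22 among the 30 members with a mean of at least 5 CPM. With 1 library left out it ranged from 0.32 to 0.45 and from 0.23 to 0.37. The cause of these shifts was not tested.

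A replicate block for the label number was also tried, although the labels do not say that it pairs the libraries. With it, 1 gene and 0 members were called with 8 libraries, and 352 genes and 4 members (CMPK2, GBP4, HERC5 and IRF1) without sgCEBPD 3. The member medians were 0.38 and 0.37.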
